A study of Arabidopsis thaliana and Zea mays subsp. mays with 14 samples.

Results

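Potassium uptake by roots, potassium loading into the xylem and stomatal movement each rest on a small set of membrane proteins in Arabidopsis thaliana, and 9 of their genes are described here, of 27444 protein-coding genes in all. They were taken by locus: the inward channel AKT1 (AT2G26650), its silent partner subunit KC1 (AT4G32650), the kinase CIPK23 (AT1G30270), the high-affinity transporter HAK5 (AT4G13420), the outward channels SKOR (AT3G02850) and GORK (AT5G37500), the inward channels KAT1 (AT5G46240) and KAT2 (AT4G18290), and the weakly rectifying channel AKT2 (AT4G22200). All but HAK5 and CIPK23 belong to the Shaker family of voltage-gated channels. HAK5 is a carrier of the KUP/HAK/KT family, and CIPK23 is a protein kinase, so the set is wider than channels alone.

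Shaker channels are tetramers that open at negative voltage and let K+ in, or at positive voltage and let it out. AKT1 and HAK5 take up K+ from the soil, and CIPK23, guided by the calcium sensors CBL1 and CBL9, phosphorylates both. KC1 forms no working channel alone and changes the voltage at which AKT1 opens. SKOR releases K+ from stelar cells towards the xylem. In guard cells KAT1 and KAT2 carry K+ in when stomata open and GORK carries it out when they close. GORK also acts in root hairs, and AKT2 works in the phloem.

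Open chromatin was mapped by ATAC-seq, which marks DNA that the enzyme Tn5 can reach and tag in nuclei, and 10 libraries in 5 groups of 2 had a list of called regions. The groups were roots of wild-type Col-0 plants (50000 nuclei), Col-0 whole seedlings with 500 sorted nuclei, Col-0 whole seedlings labelled as crude nuclei (50000), whole seedlings of a Col-0 line carrying 35S:H2AX-GFP, a tagged histone under the broadly active 35S promoter (50000), and Col-0 whole seedlings with 50000 sorted nuclei. All plants were 7 days old and had 16 hours of light a day. Whole seedlings contain roots, so the seedling libraries hold root nuclei too, and in these bulk samples fewer nuclei of a cell type and less open DNA per nucleus cannot be told apart. Nothing in the labels says that replicate libraries were made from different plants, so p-values rest on the spread among these libraries alone, and that spread may be technical.

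The value of a gene was the number of bases covered by called regions from 1000 bp outside to 200 bp inside both annotated gene ends, up to 2400 bases. The gene table gave no strand, so the ends are named left, at the lower coordinate, and right, and starts and ends of transcription were not separated. Differences are means of covered bases, tested with limma over 23893 genes, and called where the p adjusted by Benjamini-Hochberg was under 0.05. All 9 genes passed the filter of being covered in at least 2 libraries. AKT1, KC1, GORK, KAT1, AKT2 and CIPK23 were covered in all 10 libraries, while SKOR, KAT2 and HAK5 were not.

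The lists held 22138 to 23186 regions in root and 22264 to 29309 in seedling libraries, covering 15.76 to 21.56 and 13.78 to 24.61 Mb. They give no read numbers, so the depth is unknown. Across genes, crude replicate 1 correlated with the other libraries at r = 0.566 to 0.744, while pairs among the others had r = 0.623 to 0.913 (genes are not independent replicates). The tissue labels were set beside marker genes. Those lists were chosen with earlier results of these data known, so they are no independent check. The 13 photosynthesis markers summed to 4268 to 6156 covered bases in root libraries and 16615 to 26428 in seedling libraries, and 7 of the 13 were called lower in roots: the Rubisco small subunit genes RBCS1B, RBCS2B and RBCS3B, all without a covered base in roots, the antenna genes LHCB1.3 and LHCB2.2, the photosystem gene PSAL and the chloroplast regulator GLK1. The 9 root markers summed to 5287 to 8501 bases in root and 2256 to 6302 in seedling libraries, with 1 called higher, the phosphate exporter PHO1.

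In all, 3 of the 9 genes stood apart in roots on the main measure. In both root libraries AKT1 and CIPK23 were covered more than in any of the 8 seedling libraries, and AKT2 was covered less. Of all tested genes, 3.87% had both root libraries above all 8 seedling libraries and 5.72% had both below, and the other 6 potassium genes overlapped. Only AKT1 passed the test against the mean of the 4 seedling groups, 1 of 9 genes where 2.01% of all genes were called, 0.603% higher and 1.41% lower. Against sorted seedlings alone none of the 9 was called, where 0.682% of genes were, 0.105% higher and 0.578% lower. A count of 1 or 0 among 9 genes cannot be set apart from those shares, and both comparisons use the same root and sorted seedling libraries.

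**Figure D1:**
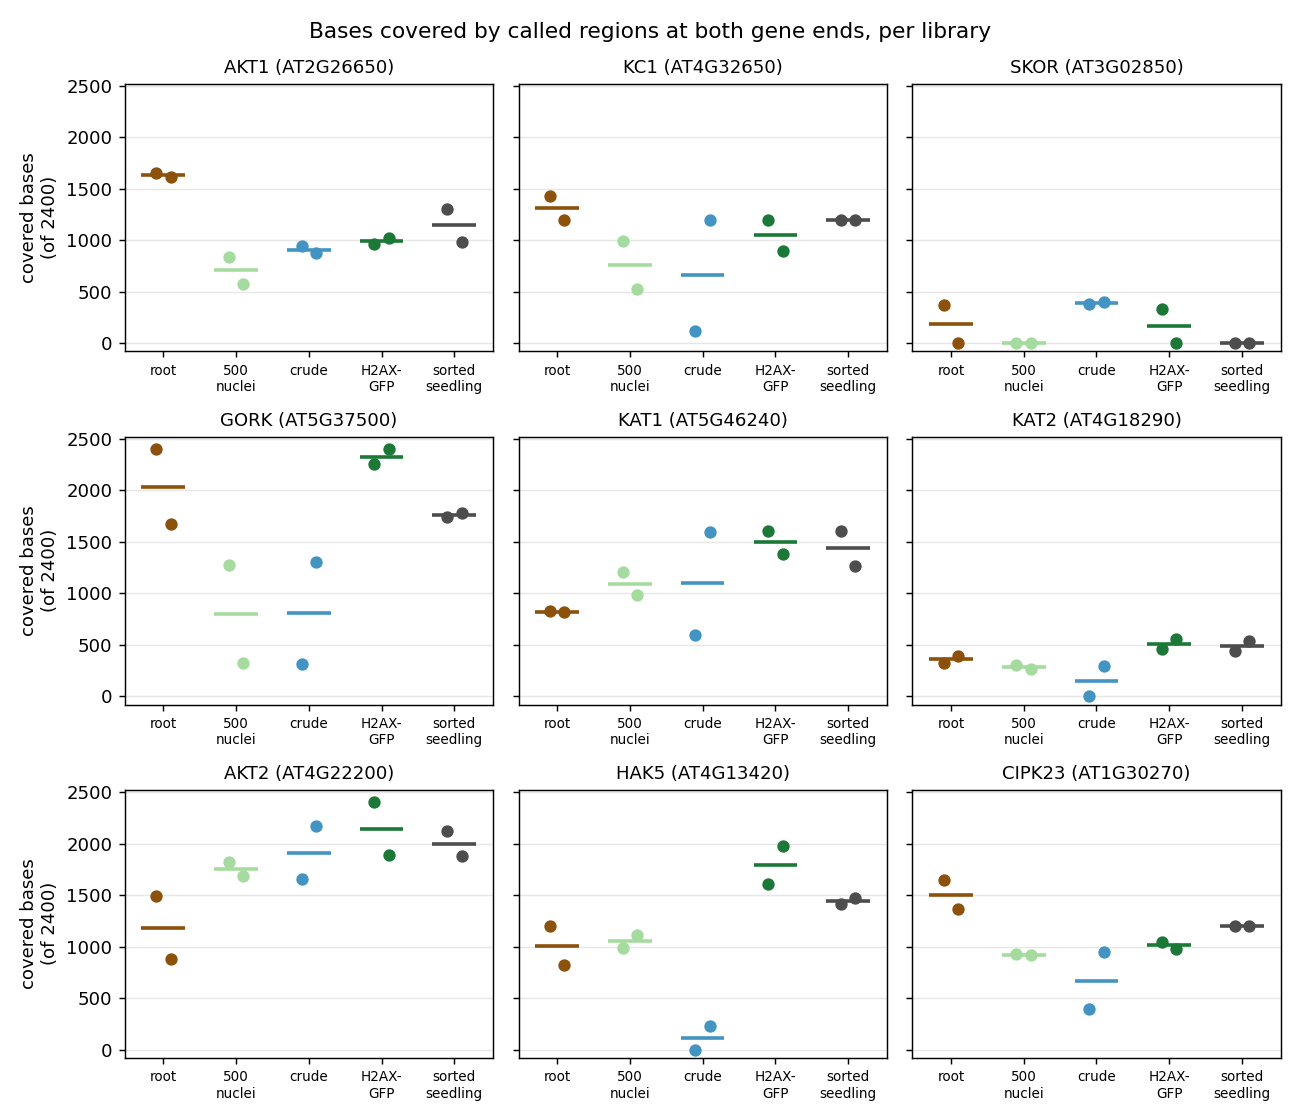
Covered bases at both gene ends (y axis, of 2400) for each of the 9 genes, in root, 500 nuclei, crude, H2AX-GFP and sorted seedling libraries; each point is 1 library and each bar is the mean of 2. AKT1 and CIPK23 sit above every seedling library in both root libraries, AKT2 sits below every one, and HAK5 is at 0 and 225 bases in the crude libraries.

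AKT1, the main inward K+ channel of the root epidermis and root hairs, had 1648 and 1609 covered bases in the root libraries. It had 838 and 579 with 500 nuclei, 942 and 871 in crude, 963 and 1024 in H2AX-GFP and 1302 and 984 in sorted seedlings. The root values lay close together and above all 8 others, the nearest being sorted seedling replicate 1. The mean was 1629 ± 27.6 in roots and 937.9 ± 202.1 over the seedling libraries (SD, n = 2 and 8), a difference of 690.6 bases (SE 131.2, limma adjusted p = 0.0475). That call was already known when the genes were chosen and sits just under the threshold. With replicate number as a block in the fit, the call was lost, at an adjusted p just over 0.05. It was lost when any single library was left out, with differences of 650.9 to 730.4 bases and adjusted p of 0.0616 to 0.261. Against sorted seedlings alone the difference was 485.5 bases (SE 166, limma adjusted p = 0.314).

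The 2 ends of AKT1 behaved differently. The right end held 972 and 1013 covered bases in roots and 569 to 1024 in seedlings, ranges that overlap. At the left end the root libraries had 676 and 596 bases, while 6 seedling libraries had none, crude replicate 1 had 373 and sorted seedling replicate 1 had 328. Both root values were higher than every seedling value, as for 4.03% of genes at the left end, and the left-end difference of 548.4 bases had a limma adjusted p of 0.0752. The regions behind it lie on chromosome 2 between 11331374 and 11332398 (TAIR10). They were modest calls: by the authors' score, the best left-end region ranked at percentile 31.2 and 34.1 of its list in roots, 11.1 in crude replicate 1 and 1.2 in sorted seedling replicate 1. When only the better-scoring 50% of regions were kept, the AKT1 difference shrank to 150 bases (limma adjusted p = 0.659). The neighbouring gene KCS11 takes up 1009 bp of this 1200 bp window and overlaps AKT1 by 9 bp. The root regions reach 549 and 248 bp into AKT1 and also cover part of KCS11, so the window does not belong to AKT1 alone.

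**Figure D2:**
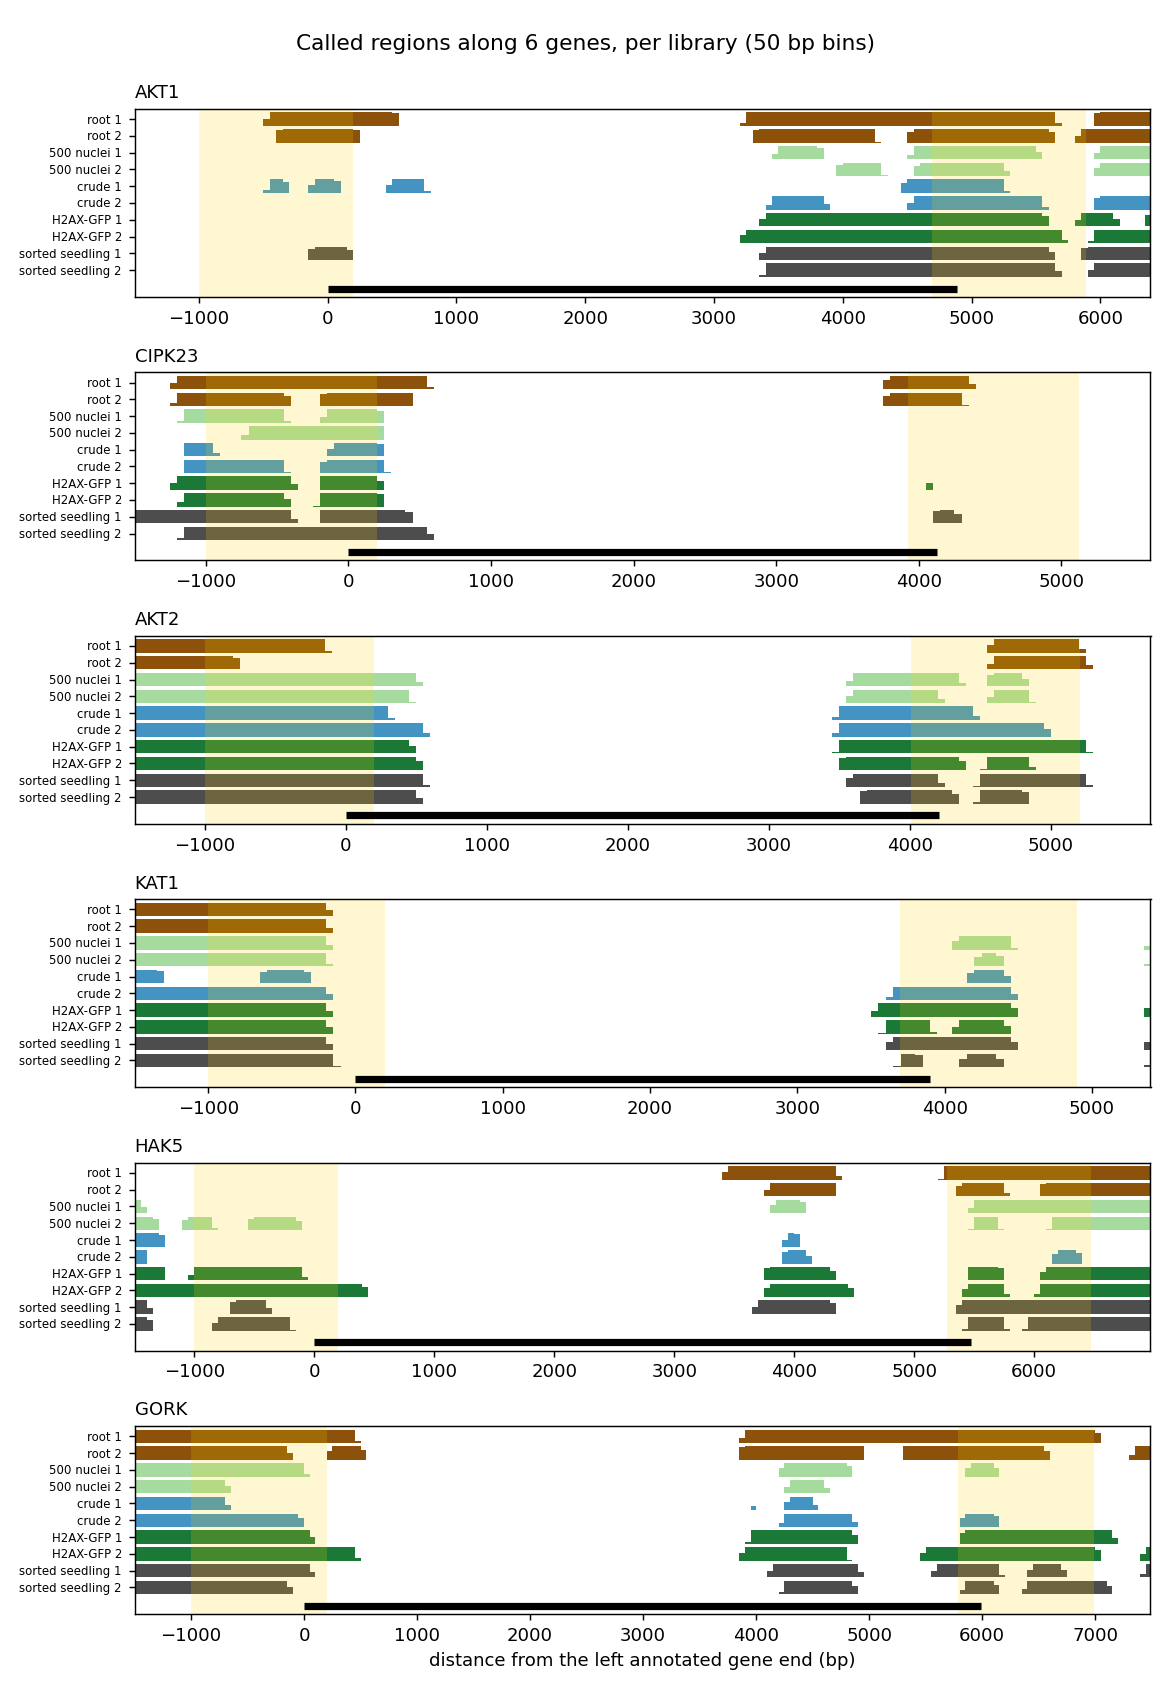
Called regions along 6 genes, 1 row per library from root (top) to sorted seedling (bottom), against the distance in bp from the left annotated gene end; bar height is the covered share of each 50 bp bin, yellow bands are the windows at the gene ends and the black line is the annotated gene. In both root rows regions are present at the left end of AKT1 and the right end of CIPK23, and missing from the right end of KAT1 and from the gene itself in AKT2.

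CIPK23, the kinase that switches on AKT1 and HAK5, had 1643 and 1361 covered bases in the root libraries. Seedling libraries had 926 and 917 with 500 nuclei, 390 and 948 in crude, 1048 and 979 in H2AX-GFP and 1199 and 1200 in sorted seedlings. Both root libraries were higher than all 8, by the least margin against the sorted seedlings. Over both ends the difference of 551.1 bases (SE 161.5) was not called (limma adjusted p = 0.164), nor was the 302.5 bases against sorted seedlings (adjusted p = 0.765).

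The right end carried the contrast for CIPK23. There the root libraries had 443 and 380 covered bases, against 0 in 6 seedling libraries, 26 in H2AX-GFP replicate 1 and 183 in sorted seedling replicate 1. With that end tested alone, CIPK23 was called higher in roots by 385.4 bases (SE 56.7, limma adjusted p = 0.0170), where 0.952% of 18900 genes were called higher. It was 1 of 8 potassium genes tested there. The end is put forward because it carried the contrast, so this call is no independent support. At that end 4.16% of genes had both root libraries above all seedling libraries. The regions lie on chromosome 1 between 10658561 and 10659167, reach from inside the gene to just past its right end, and ranked at percentile 16.9 and 22.5 by score in roots. Against sorted seedlings alone the right-end difference was 320 bases (limma adjusted p = 0.104). The left end did not separate, with 1200 and 981 bases in roots and 390 to 1200 in seedlings. No other annotated gene reaches into the windows of CIPK23.

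AKT2, the phloem channel that conducts K+ in both directions, ran the other way, with 1492 and 875 covered bases in the root libraries. It had 1823 and 1684 with 500 nuclei, 1655 and 2168 in crude, 2400 and 1889 in H2AX-GFP and 2119 and 1876 in sorted seedlings. Both root values were lower than every seedling value, and the root libraries differed from each other by more than the gap to the lowest seedling library. The difference over both ends was -768.3 bases (SE 228.8) and was not called (limma adjusted p = 0.169), nor was the -814 bases against sorted seedlings (adjusted p = 0.339). Its left end was filled, at 1200 of 1200 bases, in all 8 seedling libraries, and held 855 and 244 bases in roots. Both root values lay below all seedling values at the left end for 5.07% of genes, and the difference of -650.5 bases had a limma adjusted p of 0.0696.

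The region maps showed that the seedling regions of AKT2 run on into the gene while those of the roots stop outside it, so covered bases were also counted over the annotated gene span alone. This measure was chosen after the data were seen and because of AKT2, so its values are given as a description with no test. The span shares its outer 200 bp at each end with the windows. No base of the AKT2 gene was covered in either root library. In seedling libraries it had 1141 and 1089 bases with 500 nuclei, 1026 and 1287 in crude, 1192 and 1238 in H2AX-GFP and 1199 and 1079 in sorted seedlings. The seedling values stayed within a narrow band, 1156 ± 88.3 bases (SD, n = 8), whatever the preparation. Of 20741 genes covered in at least 2 libraries on this measure, 1.67% had no covered base in both roots and some in all 8 seedlings, and 5.52% had both roots below all seedlings.

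Phloem markers were counted beside AKT2, as it works in the phloem. The 4 markers summed to 1350 to 2496 bases in root and 1513 to 3748 in seedling libraries, none was called, and APL, which specifies phloem, was at 0 in all 10. The sucrose carrier SUC2 had 158 and 0 bases in roots and a mean of 664 in seedlings (difference -585, limma adjusted p = 0.151). SEOR1, a sieve element protein, had 1017 and 318 in roots and a mean of 1155 in seedlings (difference -487.6, adjusted p = 0.276), and the callose synthase CALS7 differed by 39 bases. The part of phloem content in the AKT2 values was not tested.

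**Figure D3:**
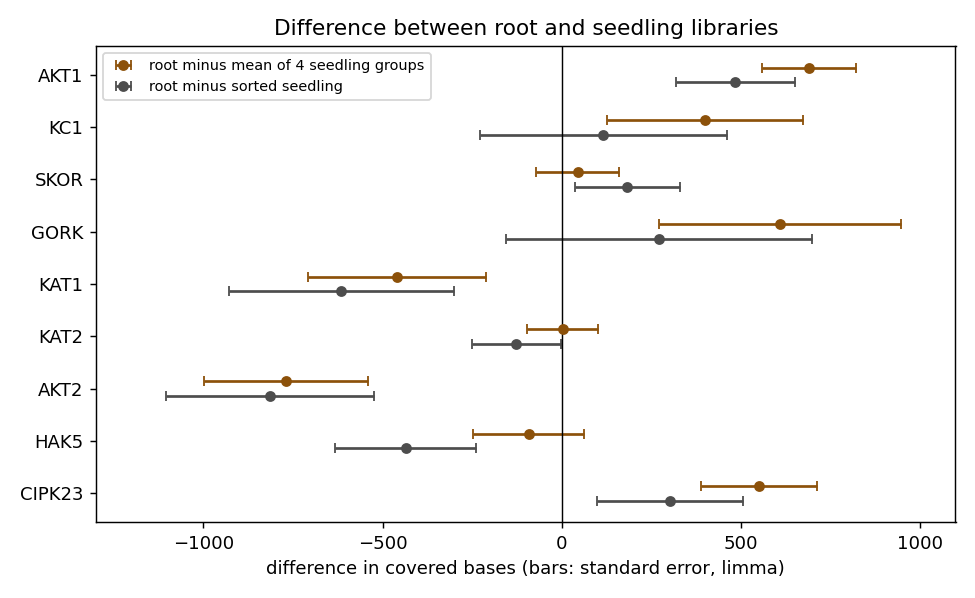
Difference in covered bases at both gene ends (x axis) for each gene, as root minus the mean of 4 seedling groups (brown) and root minus sorted seedling (grey), with limma standard errors as bars. AKT1, CIPK23, GORK, KC1 and SKOR lie to the right of 0 and AKT2, KAT1 and HAK5 to the left in both comparisons. KAT2 changes side, and only AKT1 in the first comparison is called.

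KC1, the silent subunit that tunes AKT1, had 1433 and 1200 covered bases in roots. It had 993 and 524 with 500 nuclei, 115 and 1200 in crude, 1200 and 893 in H2AX-GFP and 1200 in both sorted seedling libraries. The groups overlapped and the difference was 400.9 bases (SE 272.9, limma adjusted p = 0.615). Its right end was covered in all 10 libraries and its left end only in root replicate 1, by 233 bases.

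HAK5, the high-affinity K+ transporter that plants switch on when K+ is scarce, had 1200 and 817 covered bases in roots. It had 988 and 1116 with 500 nuclei, 0 and 225 in crude, 1611 and 1977 in H2AX-GFP and 1416 and 1471 in sorted seedlings. The root values lay inside the seedling range, and the difference was -92 bases (SE 155.9, limma adjusted p = 0.874). At the left end both root libraries, 500 nuclei replicate 1 and both crude libraries had no covered base, while 584 bases were covered in 500 nuclei replicate 2, 912 and 1200 in H2AX-GFP, and 314 and 633 in sorted seedlings. The right end had 1200 and 817 bases in roots and 0 to 1102 in seedlings. The gene span had 1163 and 683 bases in roots and 0 to 1203 in seedlings, so the direction of HAK5 depended on where bases were counted, and no measure gave a call.

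SKOR, the channel that loads the xylem, was the least covered of the 9, with 368 and 0 bases in roots. It had none with 500 nuclei or in sorted seedlings, 376 and 396 bases in crude and 336 and 0 in H2AX-GFP. Its root difference was 45.5 bases (SE 115.7, limma adjusted p = 0.924). Its left-end bases, in 4 libraries, came from regions on chromosome 3 between 616847 and 619073, outside SKOR. The gene AT3G02840 takes up 1009 bp of that 1200 bp window, including the bases covered there. Within the gene itself no base was covered in either root library. The same held for every seedling library but crude replicate 2 (134 bases) and H2AX-GFP replicate 1 (419 bases).

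GORK, the outward channel of guard cells and root hairs, had 2400 and 1671 covered bases in roots. It had 1274 and 328 with 500 nuclei, 319 and 1306 in crude, 2252 and 2400 in H2AX-GFP and 1744 and 1784 in sorted seedlings. It had the highest root mean of the 9 genes, yet the H2AX-GFP values reached as high, and the difference of 609.6 bases (SE 337.5) was not called (limma adjusted p = 0.509). The neighbouring gene AT5G37490 takes up 907 bp of the 1200 bp left window. The called regions there also cover it in part, so these values do not belong to GORK alone. Over the gene span, the root libraries had 2563 and 2110 bases and the seedling libraries 267 to 1907, without overlap. CIPK23 had 918 and 812 bases over its span in roots and 243 to 575 in seedlings, also without overlap. On that measure 4.45% of genes had both roots above all seedlings. AKT1 had 2197 and 1578 bases over its span in roots and 670 to 1700 in seedlings, which overlap.

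KAT1, a main inward channel of guard cells, had 824 and 818 covered bases in roots. It had 1204 and 981 with 500 nuclei, 599 and 1599 in crude, 1608 and 1387 in H2AX-GFP and 1609 and 1264 in sorted seedlings. Only crude replicate 1 was lower than the roots, and the difference was -460.4 bases (SE 248.3, limma adjusted p = 0.493). The left end was alike in all libraries but that one, at 824 and 818 bases in roots, 332 in crude replicate 1 and 809 to 855 in the other 7. The neighbouring gene AT5G46230 takes up 568 bp of this window and is partly covered by the same regions, so these bases do not belong to KAT1 alone.

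The right end of KAT1 separated the tissues. On chromosome 5 between 18747037 and 18747992, all 8 seedling libraries had a called region and neither root library did. The regions were not the same in all: some reached from inside the gene past its right end, those of both 500 nuclei libraries and of crude replicate 1 lay wholly outside it, and sorted seedling replicate 2 and H2AX-GFP replicate 2 had separate regions. They gave the right window 387 and 172 bases with 500 nuclei, 267 and 776 in crude, 786 and 562 in H2AX-GFP and 784 and 409 in sorted seedlings. Both roots lay below all seedlings at the right end for 5.21% of genes, with no covered base in roots for 2.06%. The right-end difference was -517.9 bases and was not called (SE 157.5, limma adjusted p = 0.184). A long non-coding RNA gene, AT5G06785, lies in the same window.

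KAT2, the second inward channel of guard cells, had 328 and 395 covered bases in roots. It had 301 and 268 with 500 nuclei, 0 and 299 in crude, 463 and 561 in H2AX-GFP and 443 and 533 in sorted seedlings. The groups overlapped and the difference was 3 bases (SE 98.4, limma adjusted p = 0.996). Its left end had no covered base in any library, and its right window is shared with the neighbouring gene AT4G18300.

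Guard cell markers were counted beside KAT1, KAT2 and GORK. Of 8 markers, SLAC1, HT1 and TGG1 were at 0 in all 10 libraries. SLAC1 is the anion channel of stomatal closure, HT1 a kinase of the CO2 response and TGG1 a myrosinase. The list summed to 1477 to 2476 bases in root and 1453 to 3725 in seedling libraries, and 0 of its 4 tested genes were called. MYB60, a guard cell transcription factor, had 924 and 507 bases in roots and 305 to 1896 in seedlings. The other 3 tested markers differed by 24.4 bases (FAMA), -169.6 (TMM) and -85.3 (ALMT12). The part of guard cell content in the values of these 3 channel genes was not tested.

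Ordered by mean, the root libraries ran GORK (2036 ± 515.5 bases), AKT1, CIPK23 (1502 ± 199.4), KC1 (1317 ± 164.8), AKT2 (1184 ± 436.3), HAK5, KAT1 (821 ± 4.2), KAT2 and SKOR (184 ± 260.2) (SD, n = 2 each). The seedling order was AKT2 (1952 ± 256.8), GORK (1426 ± 786.4), KAT1 (1281 ± 356.2), HAK5 (1101 ± 682), CIPK23 (950.9 ± 253.6), AKT1, KC1 (915.6 ± 400.8), KAT2 (358.5 ± 182.5) and SKOR (138.5 ± 191.8) (SD, n = 8 each). Within seedlings, neighbours from GORK to KC1 lay within each other's SD. AKT2 stood below 4 of the other genes in roots and above all of them in seedlings, while AKT1 stood below only GORK in roots and below 5 genes in seedlings. Windows have nearly the same size in all genes, so covered bases need no correction for gene length. Neighbouring genes take up unlike parts of them, 1009 bp for AKT1, 907 bp for GORK and none for AKT2 or CIPK23. The order therefore does not rank these genes alone.

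Libraries differ in how much they cover, so each value was also divided by its library's mean over tested genes. On that scale 6.89% of tested genes had both roots above all seedlings and 6.99% had both below. AKT1 was then 1.94 to 2.52 times that mean in roots and 0.97 to 1.65 times in seedlings. CIPK23 was 1.93 to 2.13 times in roots and 0.68 to 1.62 times in seedlings. KC1 was 1.68 to 1.88 times in roots and 0.2 to 1.5 times in seedlings, so its groups no longer overlapped on this scale. AKT2 was 1.37 to 1.75 times in roots and 2.2 to 2.98 times in seedlings. These scaled values were not tested. When values were instead divided by each library's covered length and tested with limma, AKT2 was called and AKT1 was not. There 3.49% of all genes were called, and a count of 1 among 9 genes cannot be set apart from that share.

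Seedling preparations were compared with the 50000 sorted nuclei, which the 3 comparisons share. None of the 9 genes was called in any of them, where 0% of all genes were called by limma and 1778, 2264 and 759 of 23893 had an unadjusted p under 0.05 for 500 nuclei, crude and H2AX-GFP. In crude seedlings HAK5 showed the largest difference of the 9, -1331 bases (SE 197.2, unadjusted p = 0.00021, limma adjusted p = 0.254). Its crude values, 0 and 225, lay far below the sorted ones, 1416 and 1471. Both crude values also lay below both sorted values for GORK (-951.5 bases, adjusted p = 0.541), CIPK23 (-530.5, adjusted p = 0.498), KAT2 (-338.5, adjusted p = 0.483) and AKT1 (-236.5, adjusted p = 0.676), and above them for SKOR (386, adjusted p = 0.496). The share of all genes that separate in this way was not counted, so this cannot be read as particular to these genes. The 9 genes had a median difference of -338.5 bases in crude, with 8 lower, beside -138 over all genes, of which 72.5% were lower. Crude replicate 1, which stands apart across all genes, had the lowest value of the 10 libraries for 6 of the 9 genes, KC1, GORK, KAT1, KAT2, HAK5 and CIPK23.

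With 500 nuclei 8 of the 9 genes were lower than with 50000, as were 94.2% of all genes. The median was -344 bases, beside -211.5 over all genes. GORK differed by -963 bases and AKT1 by -434.5 (limma adjusted p = 0.664 for both). In H2AX-GFP seedlings 6 of 9 were higher, where 58.3% of all genes were, at a median of 61 bases beside 23.5 over all genes. HAK5 differed by 350.5 and GORK by 562 bases there, with adjusted p of 1 for all 9.

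Other genes of K+ transport were followed from lists by family, with none called in roots against the 4 seedling groups. In that comparison 44.1% of all genes were higher and 55.8% lower. Of the other Shaker channels, the pollen channels, SPIK had 636 and 1020 bases in roots and a mean of 724.4 in seedlings, and AKT5 was at 0 in all 10 libraries. Among 6 TPK and KCO channels of the vacuole and other membranes, 4 were higher and 2 lower, led by TPK3 (692.9 bases, limma adjusted p = 0.317), TPK5 (367.4), TPK4 (230.9) and TPK2 (201.2). Among 13 KUP/HAK/KT and HKT carriers 6 were higher and 7 lower, led by KUP2 (415.7, adjusted p = 0.422), KUP6 (343.9), KUP9 (285.8) and KUP10 (192.1). Of 9 CBL sensors and related CIPK kinases, 6 were higher and 3 lower, with CIPK6 at 398 and CIPK24 at -315.4. CBL10, a calcium sensor, was at 0 in both roots and 0 to 1594 in seedlings (-654.2, adjusted p = 0.202), and CIPK9, a kinase of the low-K+ response, had 879 and 615 bases in roots and 842 to 1748 in seedlings (-640.5, adjusted p = 0.197). Of 4 regulators of HAK5 and KAT1, RAP2.11, an activator of HAK5, had 589 and 581 bases in roots and 0 to 599 in seedlings (377.7, adjusted p = 0.457), while AKS1, ARF2 and OST1 differed by 275.3, -177.3 and -148.7 bases.

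The 9 genes themselves had a median root difference of 45.5 bases, beside -26.3 over all genes. Of the 9, 6 were higher and 3 lower, where 44.1% of all genes were higher and 55.8% lower. Of the 8 root markers tested, 7 were higher and 1 lower in roots. The iron transporter IRT1 differed by 1159 bases (limma adjusted p = 0.0537), the root hair factor RHD6 by 776.6 (adjusted p = 0.0816) and the nitrate exporter NRT1.5 by 499.7 (adjusted p = 0.136), each with both root libraries above all seedling libraries, and EXPA7, an expansin of root hairs, by 560.1 (adjusted p = 0.267). COBL9 differed by 74.9 bases, SHR by 16.9 and SCR by -258.1, while NRT2.1 was at 0 in both root libraries and was not tested.

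Genes whose pattern was most like each channel gene were ranked by Pearson's r over the 10 libraries, after division by each library's mean. AKT1 was matched best by WAKL1 (r = 0.977), WRKY69 (0.961) and AT2G28755 (0.960), and 80 of 23873 genes reached 0.9. For CIPK23 they were AT3G27210 (0.974), TOM20-3 (0.972) and AT2G17500 (0.962), and for KC1 AT4G16630 (0.975), AT4G24590 (0.973) and RWA1 (0.959). AKT2 was closest to SNZ (0.981), AT5G54580 (0.974) and AT4G01240 (0.962), with 161 genes at 0.9 or more. HAK5 was closest to AT1G60110 (0.960), AT2G04675 (0.941) and AT5G39890 (0.930). GORK was closest to ARR11 (0.957), AT5G43180 (0.953) and SIP1 (0.946), and KAT1 to AT4G18840 (0.968), WCRKC1 (0.961) and AT4G15720 (0.938). KAT2 was closest to BASS2 (0.957), AT5G40450 (0.953) and AT3G28870 (0.952). These points share libraries, depth and tissue, and r is a description only. Among the 9, on the same scale, the strongest pairs were SKOR with KAT2 (r = -0.829), GORK with AKT2 (-0.820), KAT2 with HAK5 (0.804), SKOR with HAK5 (-0.798), KC1 with CIPK23 (0.772) and AKT1 with AKT2 (-0.746), with SKOR at 0 in 6 of the 10 libraries.

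**Figure D4:**
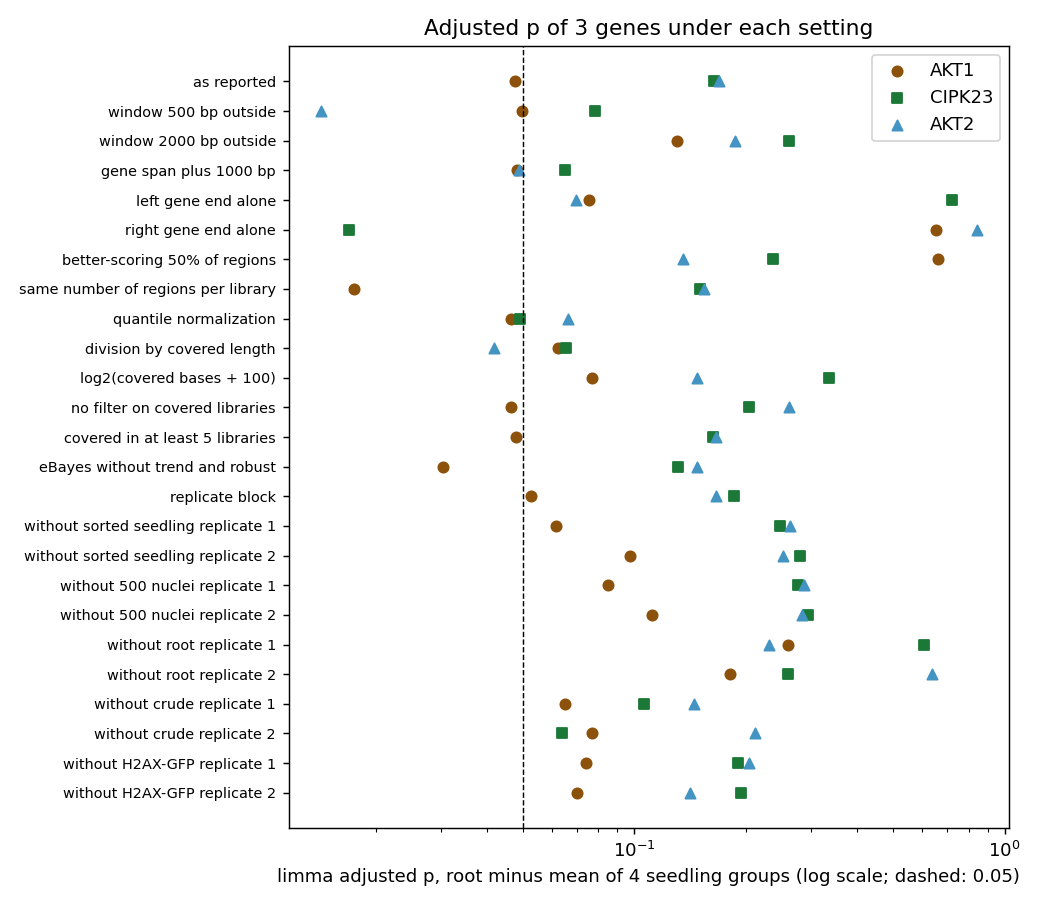
Limma adjusted p (x axis, log scale, dashed line at 0.05) for AKT1, CIPK23 and AKT2, root minus the mean of 4 seedling groups, under the reported setting (top) and alternatives to it (rows). AKT1 lies close to the line in the reported setting and to its right in every row that leaves out a library; CIPK23 lies furthest left for the right gene end alone, at 0.0170, and AKT2 for windows of 500 bp, at 0.0143.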

How the data were processed

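Region lists of 10 ATAC-seq libraries were used. Of 14 samples, the other 4 (genomic DNA, maize and a sample named by a read number) were not analysed here. Per the labels' protocols, nuclei were enriched, sorted and treated with Tn5, the crude ones under the same text. The deposited lists give region coordinates in bases (other unit) and the authors' score per region, whose definition and peak caller the sources used here do not give; the score only ranked regions within a library. Regions were listed per library, on TAIR10 per the submitters' processing notes. RefSeq TAIR10.1 genes were joined by position: 46.67% of gene ends were covered in sorted seedling replicate 1, against 20.87% of positions 5000 bp outside.

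The test on covered bases was that of limma (version 3.58.1, R 4.3.3), by lmFit and then eBayes (trend and robust on), with all 10 libraries in the fit. It was tested on simulated data. Other steps ran in Python 3.11.15. Members and lists were chosen with earlier results of these data known. Named genes were the 9, every called list gene of a root comparison or up to 4 per list by difference, and the 3 most alike genes per member. The planned motif search was not run, as no strand or sequence was used here. Alternatives were other windows, normalizations, region sets, scales, filters and left-out libraries.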

Additional observations from a re-analysis of the deposited data

How the results depend on the processing

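The list gave 1 called potassium gene for root against the 4 seedling groups, where 2.01% of all genes were called. The count was 2 with windows of 500 bp (2.66% of all genes), the gene span plus 1000 bp (2.22%), quantile normalization (4.61%) and the gene span alone (2.17%), which was added after seeing the AKT2 map and is no test of it. It was 0 with windows of 2000 bp, the left end alone, the better-scoring 50% of regions, log2(covered bases + 100), covered or not as 0 and 1, the replicate block, and every left-out library (0 to 0). Against sorted seedlings it was 0, and 1 for the gene span alone (0.627% of all genes). That 1 was AKT2, the gene that prompted this measure, so the call is no test of it. For 500 nuclei, crude and H2AX-GFP it was 0 throughout. AKT1 kept its call in 7 of 25 alternatives with another fit and its direction in all. With the replicate block its adjusted p was 0.0527. The labels tie no replicate number to a shared batch, and the reported fit takes no pairing. Deviations of same-numbered libraries correlated at -0.22 to 0.514 over 10 group pairs, above 0.1 in 4 of them. These were 0.392 to 0.514 among 500 nuclei, H2AX-GFP and sorted seedlings, and 0.297 for root with H2AX-GFP. Same-numbered libraries of those groups thus varied together, and the reported fit does not account for it. AKT2 was called beside AKT1 with 500 bp windows (-913, limma adjusted p = 0.0143) and the gene span plus 1000 bp (-1525, 0.0489). With division by covered length (3.49% of all genes called) AKT2 was called (-794.4, 0.0418) and AKT1 was not. CIPK23 was called beside AKT1 after quantile normalization (565.8, 0.0492). Over all genes the calls ranged from 0 without root replicate 1 to 1101 (532 higher, 569 lower) after quantile normalization, beside 481 (144 higher, 337 lower), and against sorted seedlings from 0 to 508, beside 163; division by covered length gave 404 higher and 431 lower. Uncalled differences that changed sign against the 4 seedling groups were SKOR (-23.62 for the gene span plus 1000 bp, -69.12 for the span alone), KAT1 (57.5, left end), KAT2 (-18 for 2000 bp, -117.6 and -142.9 for the span with and without 1000 bp) and HAK5 (25.38 for 500 bp, 326.6 and 522.1 for the span with and without 1000 bp, 363.4 right end, 466.6 better-scoring regions, 12.5 equal region numbers, 0.309 on log2, 0.125 as 0 and 1). Leaving out single libraries gave -138.5 to 229.5 bases for SKOR, -34.38 to 40.38 for KAT2 and -283.5 to 99.5 for HAK5. Against sorted seedlings they were KC1 (-59, span alone), SKOR (-46, 2000 bp), KAT2 (6.45, quantile), HAK5 (2.5 and 526.5 for the span with and without 1000 bp, 38.5 right end, 257.5 better-scoring regions) and CIPK23 (-17.5, left end and better-scoring regions), and GORK ran from -93 to 636 with single libraries left out. The causes were not tested. Depth is unknown, and 2 root libraries limit every root comparison.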
